A study of Mus musculus with 30 samples.

Results

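The genes described here belong to MHC class II antigen presentation and were followed in the livers of mice that had received carbon black nanoparticles. They are H2-Aa and H2-Ab1, which encode the chains of the classical I-A molecule, H2-Eb1, the β chain of I-E, Cd74, the invariant chain, Ctss, a protease, H2-DMa and H2-DMb1, the peptide-exchange factor, and Ciita, the transactivator. A probe was taken as a member's where the RefSeq transcript named in the array files belonged to that gene. Of the 8 genes, 7 had a probe that was tested, among 12225 named genes tested in all, and H2-Eb1 was matched to no probe.

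The exposed animals were 14 female C57BL/6 mice whose tracheas had been instilled with Printex 90 (0.162 mg of this nanosized carbon black in suspension), and the controls were 16 female C57BL/6 mice whose treatment the labels give only as none. All mice were bought at 5 to 6 weeks of age, and the suspension fluid was 0.9% saline with 10% acellular lavage fluid of the same strain. Each liver was measured on 1 array in Cy5 against a universal mouse reference RNA in Cy3, and all levels are log2 ratios of liver over reference. No dye was swapped, and a probe's ratio has no scale in common with another probe's. In the series text each treatment has 6 mice, a smaller number than that of the arrays used here, and no time after exposure is given.

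The animals of either group carry numbers that form 3 runs, a run ending where the next number is over 10 higher. Exposed runs 1, 2 and 3 held 4, 5 and 5 animals (numbers 176 to 180, 193 to 197 and 212 to 216), and control runs 1, 2 and 3 held 6, 5 and 5 animals (numbers 547 to 552, 570 to 575 and 595 to 600). What a run stands for is not given in the labels, and no exposed run is matched there to a control run. Median Cy5 intensity was 104 to 196 per array, with 42.8% to 79.2% of probes detected well over background. Exposed run 1 lay low in that range, with median Cy5 of 104 to 119.5 and 50% to 55.6% of probes well above background. All controls on the same slides also had a median Cy5 within 104 to 119.5, while the controls on the other slides had 133 to 196. The contrasts with the control runs used both. The lowest share of probes well above background, 42.8%, was in control run 2. The animals of exposed run 1 all lay on the first of the exposed positions of a slide, and those of exposed run 3 on the last. Control runs 1 and 3 likewise lay on the first and last control positions. Exposed and control animals never shared a position, so group and position cannot be told apart. The mean log2 ratio over 6 tested hepatocyte markers lay between 5.03 and 6.18 in exposed animals and between 5.09 and 6.47 in controls, far above the reference RNA, as the liver label states.

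MHC class II molecules display peptides from the endosomes to CD4+ T cells. The chains assemble with the invariant chain, which blocks the groove until cathepsin S trims it, and H2-DM then exchanges its last fragment for an antigenic peptide. In the liver this machinery is known from Kupffer cells, dendritic cells, B cells and sinusoidal endothelium, while hepatocytes carry little of it at rest. Transcription depends on CIITA, which interferon gamma induces and which acts on the W/S, X and Y boxes upstream of these genes.

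The RefSeq promoter table of mouse build GRCm38.p6 held 5 of the 8 genes. The windows printed here are those of the 3 members in it whose RNA fell in exposed run 1, to show the X and Y boxes near their start, and that of H2-Eb1, which shares its X box letters with H2-DMb1. Each line gives the 150 bases before the annotated start, written 5′ to 3′ on the gene's own strand, and capitals mark matches to 3 motifs searched on both strands after the sequences had been read: TGATTGG (a Y box core), TGACGTCA (an X2 box core) and AACTGATGATGCT (the longest run of letters that the windows of H2-DMb1 and H2-Eb1 share, over their X box).
H2-Aa, chr17:34287824-34287973, minus strand: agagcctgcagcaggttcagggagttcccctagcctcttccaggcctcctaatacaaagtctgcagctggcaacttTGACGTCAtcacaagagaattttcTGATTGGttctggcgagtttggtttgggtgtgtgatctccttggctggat
H2-DMb1, chr17:34153041-34153190, plus strand: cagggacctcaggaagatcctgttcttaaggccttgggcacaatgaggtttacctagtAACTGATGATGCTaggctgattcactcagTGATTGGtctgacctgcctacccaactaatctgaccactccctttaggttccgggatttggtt
H2-Eb1, chr17:34305717-34305866, plus strand: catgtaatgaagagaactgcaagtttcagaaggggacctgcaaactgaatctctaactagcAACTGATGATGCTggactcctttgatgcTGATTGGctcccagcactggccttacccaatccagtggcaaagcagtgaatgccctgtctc
Ctss, chr3:95526636-95526785, plus strand: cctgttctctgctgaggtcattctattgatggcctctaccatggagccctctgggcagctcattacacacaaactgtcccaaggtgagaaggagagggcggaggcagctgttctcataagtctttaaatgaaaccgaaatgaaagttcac

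In H2-Aa the Y box core began 50 bases before the start and the X2 core 24 bases further upstream. In H2-DMb1 the Y core began 63 bases before the start and the shared run 29 bases further upstream. H2-Eb1, which was not measured, held the same run and Y core with their first bases 28 apart. The Ctss window held none of the 3 motifs, nor did either of the 2 windows listed for H2-DMa. Among all 32851 windows of this length in the table, 5.71% held TGATTGG, 1.36% held TGACGTCA and 0.00609%, or 2 windows, held AACTGATGATGCT, both of them the windows it was taken from. The matches describe letters and were not tested as binding sites.

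Over all animals no class II gene passed the test between exposed and control livers. In limma's moderated test, adjusted for all 23607 tested probes by the Benjamini-Hochberg method at 0.05, 0 of 7 genes passed, against 0.0169% of all tested probes called, and 1 of 7 had an unadjusted p under 0.05, against 12.2% of probes. All 7 differences were below 0, between -0.27 and -0.05 on the log2 scale, with a median of -0.16, where the median over all named genes was -0.00074. The one with the unadjusted p under 0.05 was H2-DMb1, whose product pairs with that of H2-DMa. It averaged 0.76 ± 0.31 in exposed animals (SD, n = 14) and 1.02 ± 0.28 in controls (SD, n = 16), a difference of -0.27 ± 0.10 (SE, adjusted p = 0.24). On the 7 slides that held both groups, H2-DMb1 was lower in the exposed animals on 7, Cd74 and Ciita on 6, and H2-Aa, H2-Ab1, H2-DMa and Ctss on 4 slides each. How many of all tested probes were lower on as many slides was not counted. Without the 4 animals of exposed run 1 the differences of H2-Aa, H2-DMa and Ctss were 0.11, 0.0056 and 0.0032, and again 0 of 7 genes passed.

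The exposed runs were also compared with each other, where run and slide position went together except in exposed run 2. In the moderated F test over the 3 exposed runs, Cd74 (adjusted p = 0.0425) and Ctss (adjusted p = 0.0415) passed, 2 of 7 genes against 4.13% of all tested probes. Neither passed there with slide as a fixed block (adjusted p = 0.15 for Cd74 and 0.159 for Ctss), with array position as a term (0.219 and 0.206) or with median centring (0.704 and 1). H2-Aa did not pass this F test by its probe of highest mean Cy5 (adjusted p = 0.0764), but its other probe did (adjusted p = 0.0142). Over the control runs 0 of 7 passed, against 0.089% of probes, and Ctss had an unadjusted p of 0.00774 there (adjusted p = 0.52). Against the mean of the 3 control runs, 5 of 7 class II genes fell in exposed run 1 and 0 rose, where 3.19% of all tested probes fell and 1.6% rose, 4.8% together. Those that fell were H2-Aa, H2-Ab1, Cd74, Ctss and H2-DMb1. The median difference of the 7 genes was -0.59, beside -0.04 over all named genes. In exposed run 2, 0 of 7 passed (0.0169% of probes, median -0.05), and in exposed run 3, 0 of 7 passed (0.131% of probes, 0.0212% lower, median -0.01). These contrasts share all control animals. Whether a lower ratio means fewer cells that carry the transcript or less RNA in each cannot be told apart in whole liver.

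**Figure D1:**
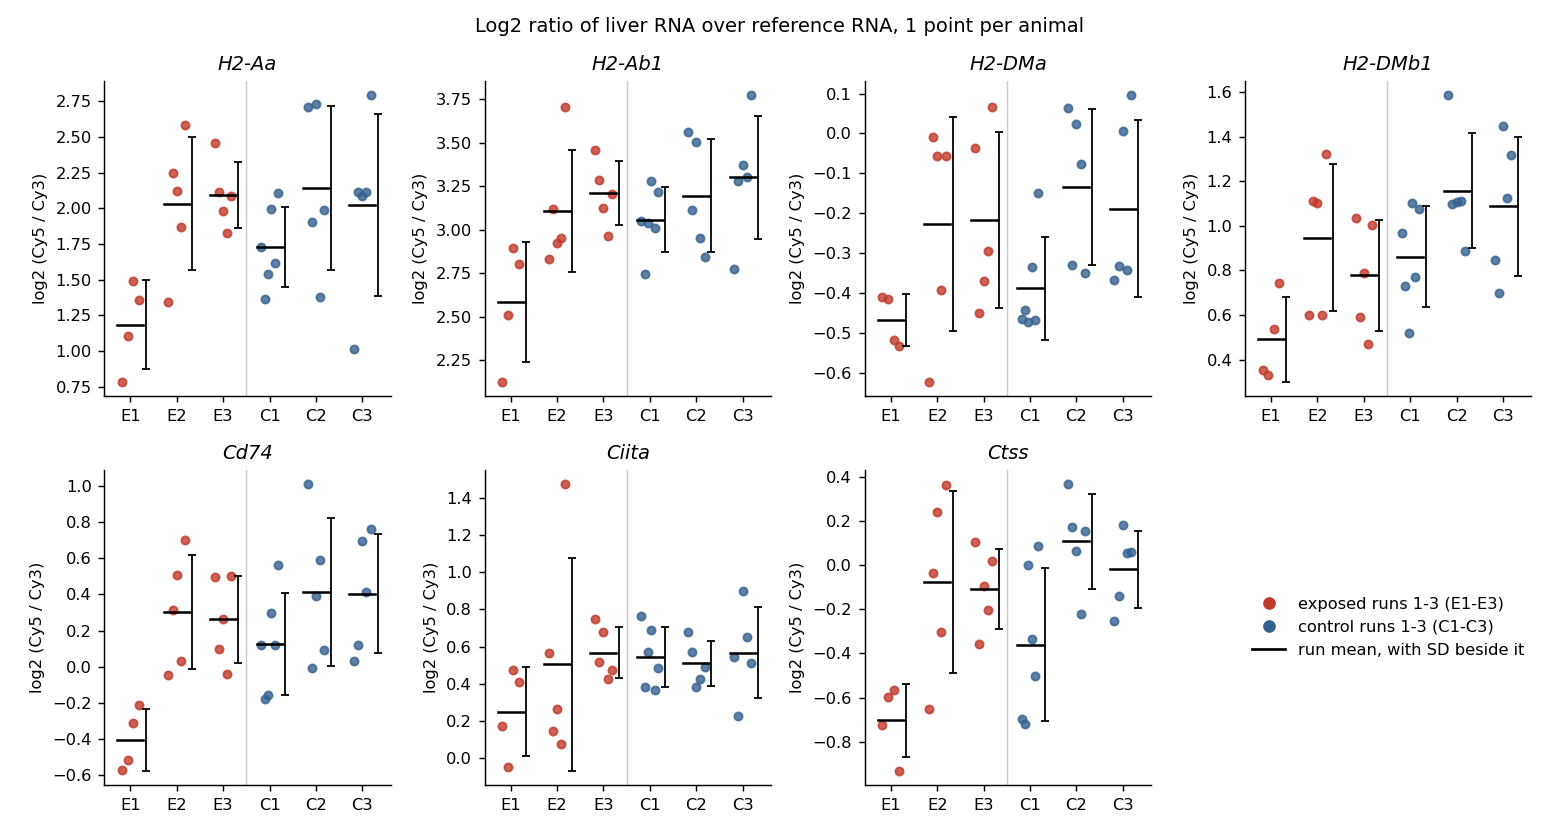
Log2 ratio of Cy5 (liver) over Cy3 (reference) for each tested class II gene, with 1 point per animal, the run mean as a line and its SD beside it; exposed runs 1 to 3 (E1 to E3, red) stand left of control runs 1 to 3 (C1 to C3, blue). For Cd74 the 4 points of E1, between -0.58 and -0.21, lie under every other point, and for the other genes E1 overlaps other runs.

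Cd74, the invariant chain, was the only one of the 7 in which exposed run 1 overlapped no other animal. The 4 animals of exposed run 1 had log2 ratios of -0.58, -0.52, -0.31 and -0.21, those of exposed run 2 had -0.05, 0.32, 0.51, 0.03 and 0.70, and those of exposed run 3 had 0.50, 0.10, 0.26, -0.04 and 0.50. The 16 controls lay between -0.18 and 1.01 with a median of 0.21. All 4 animals of exposed run 1 were thus below the other 10 exposed animals and below all 16 controls. How many of all tested probes set exposed run 1 apart in this way was not counted, and 4.8% of them were called in its contrast. The Cd74 difference from the control runs was -0.70 ± 0.15 (SE, adjusted p = 0.00632), or 1.63-fold lower. It passed in each of the 30 repeats that left out 1 animal. It did not pass with median centring of the arrays (-0.58, adjusted p = 0.179) or against control run 1 alone (-0.51, adjusted p = 0.226). The Cy3 signal of the Cd74 probe averaged 10.30 ± 0.20 (log2 intensity) in exposed run 1, inside the 10.20 to 10.36 of the control run means. Cy5 averaged 10.09 ± 0.36 in exposed run 1 (SD, n = 4) and 10.55 to 11.23 in the means of the control runs. These channel values were background-corrected but taken before loess, so they also carry the brightness of each array. Which channel the difference comes from was not tested.

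Ctss encodes cathepsin S, the protease that removes most of the invariant chain. Its log2 ratios were -0.72, -0.60, -0.56 and -0.93 in exposed run 1, between -0.65 and 0.36 in exposed run 2 and between -0.36 and 0.10 in exposed run 3. Controls ranged from -0.72 to 0.37 with a median of 0.03. The means of the control runs were spread. Control run 1 averaged -0.36 ± 0.35 (SD, n = 6), below control run 2 with 0.11 ± 0.22 and control run 3 with -0.02 ± 0.17 (SD, n = 5 each), and 2 of 16 controls lay under the highest animal of exposed run 1. Against all control runs the difference was -0.59 ± 0.13 (SE, adjusted p = 0.00925), or 1.5-fold lower, and against control run 1 alone it was -0.32 (adjusted p = 0.407).

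H2-Ab1 and H2-Aa encode the β and α chains of I-A. H2-Ab1 had log2 ratios of 2.13, 2.51, 2.90 and 2.80 in exposed run 1, between 2.83 and 3.70 in exposed run 2 and between 2.96 and 3.46 in exposed run 3. The controls lay between 2.74 and 3.77 with a median of 3.17, and 3 of 16 lay under the highest animal of exposed run 1. The difference was -0.61 ± 0.15 (SE, adjusted p = 0.0201), or 1.52-fold lower. A further H2-Ab1 probe fell by 0.82 ± 0.22 (SE, adjusted p = 0.028), and the third had a difference of -0.65 ± 0.23 (SE, adjusted p = 0.104). From the scanner software's processed signals the difference of H2-Ab1 was -0.36 (adjusted p = 0.0817).

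H2-Aa had log2 ratios of 0.78, 1.105, 1.49 and 1.36 in exposed run 1, between 1.35 and 2.58 in exposed run 2 and between 1.83 and 2.46 in exposed run 3. Controls lay between 1.01 and 2.79 with a median of 1.99. All 4 animals of exposed run 1 were below the control median, and 3 of 16 controls lay under the highest of them. The difference was -0.77 ± 0.23 (SE, adjusted p = 0.044), or 1.71-fold lower, and it passed in 13 of the 30 repeats that left out 1 animal. The other H2-Aa probe fell by 0.95 ± 0.22 (SE, adjusted p = 0.0108). The reference RNA gave the first H2-Aa probe a Cy3 signal well above background on 2 of 30 arrays, so its ratio has a weak denominator. Cy3 of that probe averaged 6.17 ± 0.66 (log2 intensity) in exposed run 1, with a highest value of 7.15, and 5.86, 6.15 and 6.00 in control runs 1, 2 and 3. Cy5 averaged 7.35 ± 0.27 in exposed run 1 (SD, n = 4) and 7.75, 8.58 and 8.12 in those control runs. These channel values too were taken before loess and carry the brightness of each array. From the scanner software's processed signals the difference of H2-Aa was -0.27 (adjusted p = 0.757).

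Animal 176 had the lowest log2 ratio of all 30 animals for H2-Aa, H2-Ab1 and Cd74. Without it the differences of exposed run 1 were -0.59 for H2-Aa (adjusted p = 0.231), -0.42 for H2-Ab1 (adjusted p = 0.172) and -0.47 for H2-DMb1 (adjusted p = 0.0995), and 2 of 7 genes passed, Cd74 (-0.62, adjusted p = 0.0432) and Ctss (-0.57, adjusted p = 0.0366). Leaving out animal 177 also left Cd74 and Ctss as the 2 that passed.

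The H2-DM genes encode the factor that loads peptides. H2-DMb1 had log2 ratios of 0.35, 0.33, 0.54 and 0.74 in exposed run 1, between 0.60 and 1.32 in exposed run 2 and between 0.47 and 1.03 in exposed run 3. Controls ranged from 0.52 to 1.59 with a median of 1.09, so that 3 of 16 lay under the highest animal of exposed run 1. The difference was -0.53 ± 0.14 (SE, adjusted p = 0.0198), or 1.45-fold lower. In exposed run 3 it was -0.27 ± 0.13 (SE, adjusted p = 0.359). H2-DMa spread little, between -0.53 and -0.41 in exposed run 1, between -0.62 and 0.07 in the other exposed animals and between -0.47 and 0.10 in controls. Its difference in exposed run 1 was -0.21 ± 0.10 (SE, adjusted p = 0.236) and did not pass. A probe that the design versions name for H2-DMb2 in one and for H2-DMb1 in the other had a difference of -0.07 ± 0.08 (SE, adjusted p = 0.71) and is of uncertain identity.

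Ciita, the transactivator of class II genes, did not pass in any comparison. Its log2 ratios were 0.17, -0.05, 0.47 and 0.41 in exposed run 1, between 0.08 and 1.47 in exposed run 2 and between 0.43 and 0.75 in exposed run 3. Controls lay between 0.23 and 0.90 with a median of 0.53. The difference of exposed run 1 was -0.31 ± 0.15 (SE, adjusted p = 0.252). In Cy5 Ciita was the only member not well above background on every array (29 of 30), and in Cy3 it was well above background on 22 of 30. The animal of exposed run 2 at 1.47 lay above all the others.

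**Figure D2:**
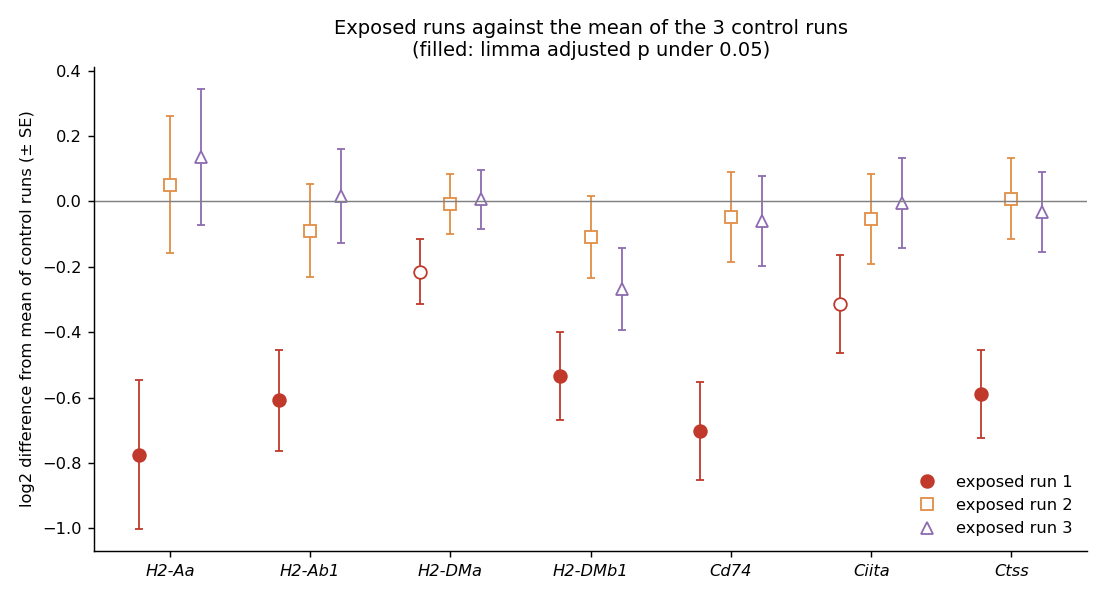
Log2 difference of exposed runs 1 (circles), 2 (squares) and 3 (triangles) from the mean of the 3 control runs, with SE, for each class II gene; filled symbols had an adjusted p under 0.05. In run 1 all 7 differences lie between -0.77 and -0.21 with 5 filled, while those of runs 2 and 3 lie between -0.27 and 0.14 with 0 filled.

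Within slides, each animal of exposed run 1 could be set beside the mean of the 2 controls that shared its slide. Cd74 was lower on 4 of 4 slides, by -1.11 to -0.24, H2-DMb1 on 4 of 4 by -0.86 to -0.25, Ctss on 4 of 4 by -0.62 to -0.08 and H2-DMa on 4 of 4 by -0.31 to -0.01. H2-Aa, H2-Ab1 and Ciita were lower on 3 of 4 slides. The exception was the slide of animal 179 in each case, where the differences were 0.30, 0.14 and 0.01. These are the same animals as in the contrast with the control runs, so the slides add no independent support. The share of all tested probes lower on 4 of 4 slides was not counted. With slide as a fixed block Cd74 (adjusted p = 0.0174) and Ctss (adjusted p = 0.0284) passed, and with array position as a term Cd74 (adjusted p = 0.0393) and H2-DMb1 (adjusted p = 0.0466). With each array centred on its median in place of loess, H2-Ab1 (-0.57, adjusted p = 0.0381) was the only one of 7 to pass. Against control run 1 alone, whose animals lay on the same kind of position, 0 of 7 passed, with differences between -0.53 and -0.07. Control run 1 was itself the lowest control run by mean for every tested member but Ciita. The mean log2 ratio over the 7 members averaged 0.80 in control run 1, 1.06 in control run 2 and 1.02 in control run 3. In exposed run 1 it averaged 0.42. A low first run was thus seen in both groups, though 0 of 7 passed among the control runs. Over all alternatives the adjusted p ranged from 0.00364 to 0.226 for Cd74, 0.00391 to 0.558 for Ctss, 0.00743 to 0.272 for H2-Ab1, 0.0105 to 0.347 for H2-DMb1 and 0.00923 to 0.757 for H2-Aa. The part of position, slide and signal in the difference was not tested further.

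**Figure D3:**
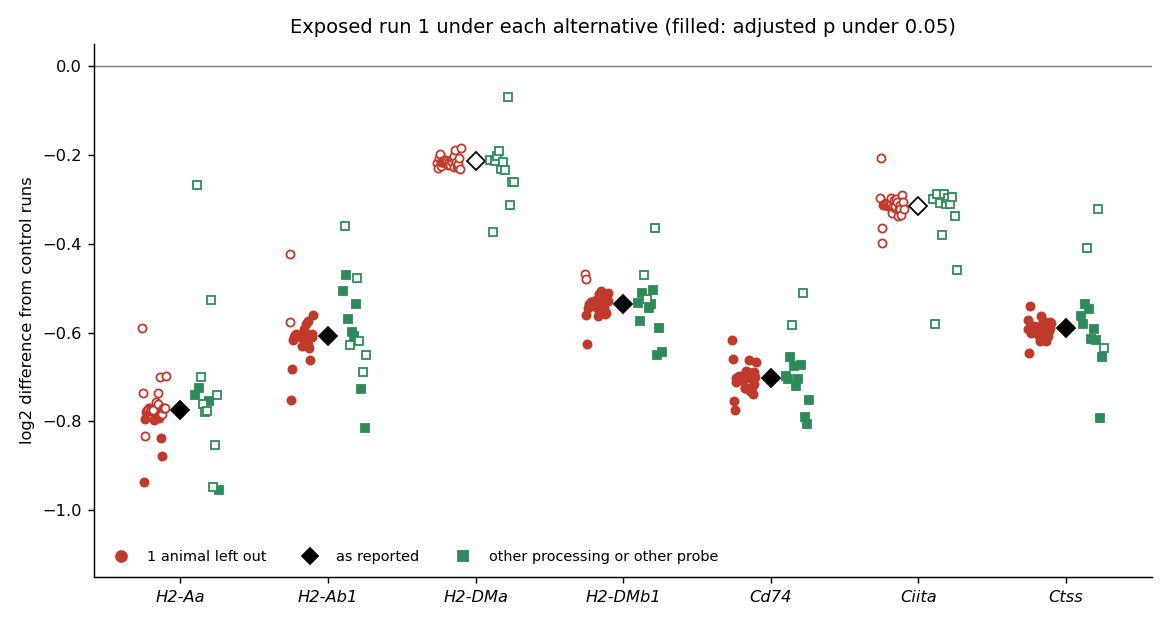
Log2 difference of exposed run 1 from the control runs for each class II gene, as reported (black diamonds), with 1 animal left out (red circles) and under other processing, control runs or probes (green squares); filled symbols had an adjusted p under 0.05. All points lie below 0, and open symbols among the 5 genes that fell mark the settings that end the call.

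The members' ratios were compared from animal to animal. Over the 30 animals the 21 pairs of genes had Pearson r between 0.21 and 0.91, with a median of 0.71. The closest pairs were H2-Aa with H2-Ab1 (r = 0.91) and H2-DMb1 with Cd74 (r = 0.91), and the loosest was H2-DMa with Ciita (r = 0.21). The pairs share arrays and slides. In exposed animals alone the median r was 0.77 (n = 14) and in controls alone 0.61 (n = 16), where the lowest of the 21 pairs had r = 0.091 and the highest 0.91. The exposed animals include the low exposed run 1, and without that run the median r over both groups was 0.64 (n = 26). A difference in r between the groups was not tested. Pairs of genes outside these 7 were not compared.

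The 10 genes most like the mean of the 7 members over the 30 animals were Cxcl9 (r = 0.85), a chemokine, Mpeg1 (0.82), which encodes perforin-2, Adgre5 (0.82), the leukocyte receptor CD97, Supt5 (0.81), a transcription elongation factor, Nkg7 (0.81), a granule protein of cytotoxic cells, Gvin1 (0.81), a large GTPase, Cst3 (0.81), the protease inhibitor cystatin C, Oasl2 (0.80), an oligoadenylate synthetase-like protein, Glud1 (0.80), glutamate dehydrogenase, and Gbp2b (0.80), a guanylate-binding protein. Without the 4 animals of exposed run 1 their r lay between 0.67 for Glud1 and 0.82 for Gbp2b (n = 26).

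Further genes of class II processing and control were read in exposed run 1. Of all tested probes 3.19% fell and 1.6% rose in this run. Of 8 tested genes of class II loading and lysosomal processing, 1 fell and 0 rose, with a median difference of -0.14. Ctsb, the lysosomal protease cathepsin B, fell by 0.60 ± 0.12 (SE, adjusted p = 0.00249), and Lgmn, the asparaginyl endopeptidase legumain, differed by -0.29 ± 0.09 (SE, adjusted p = 0.0502), or by -0.021 with median centring. Of 13 tested genes of the class II enhanceosome and interferon gamma signalling, 2 fell and 0 rose, with a median of -0.13. They were the chains of the interferon gamma receptor, Ifngr2 (-0.42 ± 0.09, SE, adjusted p = 0.00538) and Ifngr1 (-0.35 ± 0.10, SE, adjusted p = 0.0354). The 11 others that were tested, among them the Rfx and Nfy subunits that bind the X and Y boxes, and Irf1 (-0.39 ± 0.17, adjusted p = 0.198), did not pass. Irf1, the interferon-induced activator of Ciita, was at -0.56 in exposed run 2, where it did not pass either, nor did Rfx5, a subunit that binds the X box, at -0.27 there.

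MHC class I presents peptides from the cytosol. Of 11 tested class I genes 6 fell and 0 rose in exposed run 1, against 3.19% of all tested probes lower, with a median of -0.27, and 5 did not pass. The immunoproteasome subunits Psmb9 and Psmb8 fell by 0.60 ± 0.11 (SE, adjusted p = 0.00168) and 0.45 ± 0.09 (SE, adjusted p = 0.00428). B2m, the light chain, fell by 0.42 ± 0.08 (SE, adjusted p = 0.00191), and Tapbp, which encodes tapasin, fell by 0.38 ± 0.09 (SE, adjusted p = 0.00929). With median centring B2m was at -0.12, Tapbp at -0.11, Psmb8 at -0.24, Psmb9 at -0.42 and Ctsb at -0.35, with adjusted p between 0.518 (Psmb9) and 0.951 (Tapbp), and none of these passed. The receptor chains Ifngr2 and Ifngr1 were then at -0.27 and -0.14 and did not pass. Against control run 1 alone none of these 7 genes passed either. Among the 42 alternatives each of Ctsb, Ifngr2, Ifngr1, Psmb9, Psmb8, B2m and Tapbp lost its call under at least 2 (Psmb9 and Psmb8) and at most 11 (Ifngr1). The class I and interferon genes were not tested for a difference from the class II genes. Of 4 tested costimulatory genes 0 passed, and Cd274, which encodes PD-L1, was at -0.31 in exposed run 2 without passing.

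**Figure D4:**
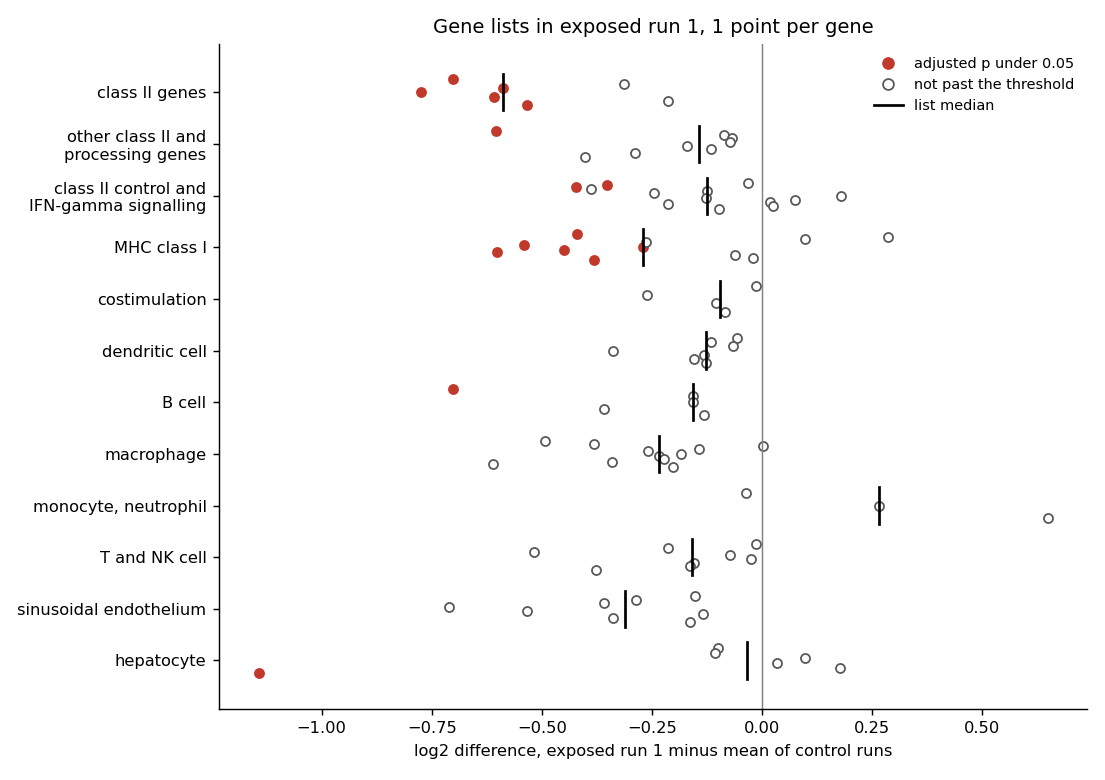
Log2 difference of exposed run 1 from the mean of the control runs, 1 point per tested gene and 1 row per gene list, with the list median as a black line; red points had an adjusted p under 0.05. The class II genes have a median of -0.59, the class I genes of -0.27 and the lists of cell type markers medians between -0.31 and 0.27.

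Markers of the cell types that carry class II mostly lay below 0 in exposed run 1, and nearly all did not pass. The median over all named genes was also below 0 there (-0.04), and the share of all genes below 0 was not counted. Of 11 tested macrophage markers 0 passed and 10 were below 0, with a median of -0.23. Their mean log2 ratio lay between 2.78 and 3.50 in exposed run 1 and between 2.73 and 3.93 in controls. Adgre1, which encodes F4/80, differed by -0.49 ± 0.15 (SE, adjusted p = 0.0617), and Timd4, a receptor of resident Kupffer cells, by -0.61 ± 0.21 (SE, adjusted p = 0.0829), or -0.19 from the scanner software's processed signals. Of 7 tested dendritic cell markers 0 passed and 7 were below 0 (median -0.13, mean log2 ratio 0.04 to 0.11 in exposed run 1 and 0.04 to 0.41 in controls), with Itgae at -0.34 ± 0.11 (SE, adjusted p = 0.06). Flt3, Cd209a and Siglech were under the detection minimum.

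Of 5 tested B cell markers 1 fell in exposed run 1, against 3.19% of all tested probes, and all 5 were below 0. Their median was -0.16, with mean log2 ratios of -1.91 to -1.66 in exposed run 1 and -1.78 to -1.17 in controls. Blnk, a B cell adaptor, fell by 0.70 ± 0.15 (SE, adjusted p = 0.00797), and Cd79b was at -0.36 ± 0.12 (SE, adjusted p = 0.0737). Blnk lost its call under 4 of 42 alternatives, among them median centring (-0.52, adjusted p = 0.428), control run 1 alone (-0.38, adjusted p = 0.397) and control run 2 alone (-0.56, adjusted p = 0.0958). Among control runs its unadjusted p was 0.000213 (adjusted p = 0.144). Cd79a and Pax5 were under the detection minimum. Of 8 sinusoidal endothelial markers 0 passed and 8 were below 0 (median -0.31, mean log2 ratio 2.16 to 3.003 in exposed run 1 and 2.24 to 3.37 in controls), with Oit3 at -0.53 and Stab1 at -0.34. Of 8 T and NK cell markers 0 passed and 8 were below 0 (median -0.16, mean log2 ratio -0.0012 to 0.15 in exposed run 1 and 0.04 to 0.69 in controls), and Cd8a and Ncr1 were under the detection minimum. The part of cell numbers in the class II differences was not tested.

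Of 3 tested monocyte and neutrophil markers 0 passed, with a median of 0.27 in exposed run 1 and mean log2 ratios of 1.16 to 1.56 there and 0.60 to 1.60 in controls. S100a9 and S100a8, calcium-binding proteins of neutrophils, were at 0.60 (adjusted p = 0.215) and 0.22 (adjusted p = 0.237) over all exposed animals. From the scanner software's processed signals they were at 0.081 and 0.93. Of 6 tested hepatocyte markers 1 fell in exposed run 1, against 3.19% of all tested probes lower, and 3 were below 0. Their median was -0.03, and Apob, Tat and Cyp2e1 were above 0, at 0.10, 0.18 and 0.03, without passing. Ttr, the thyroid hormone carrier transthyretin, fell by 1.14 ± 0.25 (SE, adjusted p = 0.00802), but was at 0.58 from those processed signals.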

How the data were processed

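Per the file headers, the authors extracted foreground and background intensity per spot with Agilent Feature Extraction (version 10.7.3.1 on 25 arrays, 10.1.1.1 on 5), and the deposited value table was found to hold log2 ratios of Cy5 over Cy3. Each of its 30 columns matched its own array best over 15470 bright spots (r 0.980 to 0.993, slopes 0.837 to 0.928), with column medians between -0.045 and -0.021. How it was centred is not given in the sources used here.

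Median signals were background-corrected by normexp (offset 50) and normalised within arrays by loess that gave control spots no weight (R 4.3.3 and limma 3.58.1). Outlier spots were set missing (1008 probe values), and spots of a probe were averaged. Of 41174 probes, 24526 took a symbol from a RefSeq table of GRCm38.p6 through their accession, and 3169 spot names differed between design versions. Probes detected well over background in Cy5 on 14 or more of the 30 arrays (23607, of which 6461 carry no symbol) were tested. Each gene is its tested probe of highest mean Cy5.

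Fits used 2 group means or 6 run means, with slide (9 slides, 7 holding both groups) as a random block, two-sided moderated tests or F tests, and Benjamini-Hochberg adjustment at 0.05. The code was tested on simulated data. Each array is 1 animal, per the labels, so p-values of the fit of group means measure the spread between animals. Those of the fit of run means measure the spread between animals within a run. How far runs of the same treatment differ from each other is not in that error. Alternatives were no background correction, processed signals, the deposited table, median centring, slide fixed or without a block, no filter, array weights, single control runs, other probes and each animal left out. Array position as a term and leaving out exposed run 1 were chosen after seeing the data. That term only told the first from the last position of a group on a slide. In the fit of run means it was set by exposed run 2 and control run 2, the only runs that held both kinds.

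The members and gene lists were chosen with earlier results of these data known. All members are named, and of each other list up to 4 genes by smallest p over 5 comparisons, here kept to an unadjusted p under 0.01, a limit set after the values were seen. One gene of the lists is not reported here and was left out of its list's counts. The 10 genes most like the members' mean are named by r. The number of arrays limits the precision.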

Additional observations from a re-analysis of the deposited data

Results flagged for a closer look

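Cd74 differed among the 3 exposed runs in the moderated F test of limma (adjusted p = 0.0425). Its run means were -0.40 ± 0.17 (SD, n = 4), 0.30 ± 0.32 and 0.26 ± 0.24 (SD, n = 5 each) in exposed runs 1, 2 and 3, and 0.13 ± 0.28 (SD, n = 6), 0.42 ± 0.41 and 0.41 ± 0.33 (SD, n = 5 each) in control runs 1, 2 and 3. Among the control runs its adjusted p was 0.83. The adjusted p among exposed runs stayed under the threshold in 17 of the 30 repeats that left out 1 animal.

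Ctss differed among the exposed runs as well (adjusted p = 0.0415), with run means of -0.70 ± 0.17 (SD, n = 4), -0.08 ± 0.41 and -0.11 ± 0.18 (SD, n = 5 each). It stayed under the threshold in 20 of those 30 repeats. With slide as a fixed block the adjusted p was 0.15 for Cd74 and 0.159 for Ctss, with array position as a term 0.219 and 0.206, with median centring 0.704 and 1, and without the filter on dim probes 0.0628 and 0.0611. For Ctss it was also 0.0838 with processed signals and 0.0522 with the deposited table. In both genes exposed run 1 was the low one, and the cause was not tested. A test for single outlying animals (Dixon, in each run) found 0 in 42 sets of a run and a gene over the 7 class II genes.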

How the results depend on the processing

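No paired analysis was possible by animal number because exposed and control animals share none. Slides that held both groups were used instead, within slides and with slide as a fixed block. The count of class II genes past the threshold stayed at 0 under every alternative over all animals, among control runs and in exposed runs 2 and 3. In exposed run 1 it was 5, and 3 with processed signals or against control run 2 alone, 2 with slide fixed or a position term, 1 with median centring, 0 against control run 1 alone and 2 to 5 with 1 animal left out. Among exposed runs it was 2, and 1 with processed signals or the deposited table, 0 with median centring, slide fixed, no filter or a position term, and 0 to 3 with 1 animal left out. The direction of all 7 genes in exposed run 1 held in every alternative. Over all animals, leaving out exposed run 1 turned H2-Aa (0.11), H2-DMa (0.0056) and Ctss (0.0032), and processed signals turned Ttr in exposed run 1 (0.58). The causes were not tested.

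The count of all probes past the threshold moved more. Over all animals it was 4, and 17 without background correction, 17 with the deposited table, 0 with median centring, 2 with slide fixed, 162 with array weights, 37 without exposed run 1 and 2 to 112 with 1 animal left out. Among exposed runs it was 976, and 125 with median centring, 167 with slide fixed, 1567 with array weights, 164 with a position term and 422 to 1178 with 1 animal left out. Among control runs it was 21, and 4 with median centring, 3 with slide fixed, 12 with a position term and 10 to 25 with 1 animal left out. In exposed run 1 it was 1132, and 1789 without background correction, 1983 with processed signals, 174 with median centring, 427 with slide fixed, 58 against control run 1, 288 with a position term and 480 to 1423 with 1 animal left out. In exposed run 2 it was 4, and 0 with processed signals, slide fixed or control run 2, 2 with the deposited table or median centring, 1 with control run 3, 93 with array weights, 153 with control run 1 and 0 to 68 with 1 animal left out. In exposed run 3 it was 31, and 20 without background correction, 3 with processed signals, 1 with median centring, 0 with slide fixed or a position term, 4 without a block, 15 without the filter, 520 with array weights, 2 with control run 3 and 0 to 137 with 1 animal left out. Signal over background limits H2-Aa and Ciita most.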
